A study of Oryza sativa with 24 samples.

Results

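The genes described here encode the subunits of ADP-glucose pyrophosphorylase and the granule-bound starch synthases of rice. They are 8 genes chosen by identifier from the 37910 identifiers in each deposited table: the large-subunit genes AGPL1 (Os05g0580000), AGPL2 (Os01g0633100), AGPL3 (Os03g0735000) and AGPL4 (Os07g0243200), the small-subunit genes AGPS1 (Os09g0298200) and AGPS2 (Os08g0345800), and the granule-bound synthase genes GBSSI (Os06g0133000) and GBSSII (Os07g0412100). All 8 were present in the files and all 8 passed the filter on low values, which left 27655 identifiers. The names of AGPS2 and GBSSI could be checked against a RefSeq gene table, and the other 6 names are those given with the identifiers.

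ADP-glucose pyrophosphorylase makes ADP-glucose, the sugar donor for starch, and is built from large subunits, which mainly tune the enzyme, and small subunits, which carry most of its catalysis. Granule-bound starch synthase then uses ADP-glucose to make amylose inside the starch granule. In anthers, sugar reaches the developing pollen through the tapetum, and the filling of pollen with starch marks its late maturation.

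RNA was sequenced from anthers of 4 rice lines, Nipponbare, Sasanishiki, PL9 and Lambayeque1. Each line was either untreated, in a greenhouse kept at 25 °C in daytime and 19 °C at night, or held at 12 °C for 4 days at booting, from about the early microspore stage. Each of the 8 groups had 3 libraries by the sample titles, whereas the series text speaks of 2 replicates. Plants grew 20 to a pot, the labels do not say that libraries came from separate plants, and p-values therefore measure only the spread between libraries, which may be technical. The labels do not give the time at which untreated anthers were collected relative to the cold treatment.

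The files hold 1 abundance value per row, which their headers name TPM, without read counts, so library depth is unknown. Between 22367 and 24281 identifiers per library had a value of at least 1. The median correlation of a library with the others of its group was 0.915 for PL9 cold library 1 and 0.901 for PL9 cold library 2, the lowest values of the 24 libraries, and PL9 calls that were lost without these libraries are named as such. CYP703A3, a tapetum gene, was at 0.418 in PL9 cold library 1, at 1405 and 226 in cold libraries 2 and 3, and at most 0.57 in untreated PL9. The other checked tapetum markers were higher in PL9 cold library 1 than in every untreated PL9 library. OsC6 was at 32750 there (untreated at most 16350), OsC4 at 1681 (40.3) and RAFTIN1 at 3840 (2543). TDR was at 227 (untreated at most 192), EAT1 at 104 (73.5) and UDT1 at 78.5 (69.1). Summed over the 4 checked genes, stamen identity markers lay between 1670 and 3949, whereas the 2 carpel markers summed to between 0.0606 and 2.89. The 4 checked outer-floret markers were not near 0 and summed to between 65.5 and 135, mostly from OsMADS14. The sum of 7 checked tapetum markers lay between 4910 and 18568 in untreated libraries and between 36305 and 106776 in cold libraries, and none of the 7 was at 0 in any group. The cold sums came mostly from OsC4 and OsC6. UDT1 hardly moved in its mean in Lambayeque1 (44.7 untreated, 44.8 cold) and PL9 (53.3 and 55.5), and was lower in Nipponbare (57.0 and 49.8). The other checked tapetum markers had higher means after cold in each line. The sum of 4 checked green-tissue markers lay between 65.2 and 528 in untreated libraries and between 216 and 1658 in cold libraries, with none at 0 in any group. Among them CAB1R went the other way in Lambayeque1, from a mean of 186 untreated to 80.5 after cold. The other checked green-tissue markers had higher means after cold in each line. The part of either shift in the changes described below was not tested.

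Cold moved the members in different directions. AGPL2 rose in each of the 4 lines, AGPS1 rose in Nipponbare and Sasanishiki, and GBSSI and AGPL4 fell in Sasanishiki and PL9. In these whole anthers, fewer cells of a type and less RNA per cell cannot be told apart. By limma with an adjusted p threshold of 0.05, 2 of the 8 genes were called higher and 0 lower in Nipponbare, where 27.7% of all tested identifiers were called. In Sasanishiki 2 were higher and 2 lower against a background of 26%. In PL9 1 was higher and 2 were lower against 17.6%, and in Lambayeque1 1 was higher and 0 were lower against 24%. Averaged over the lines, 3 rose and 2 fell, and 51.5% of all identifiers were called. Groups did not overlap for 3 of the 8 genes in Nipponbare (42.9% of all identifiers), 4 in Sasanishiki (36.9%), 4 in PL9 (35.2%) and 6 in Lambayeque1 (42.7%). The share of members called over the lines was 5 of 8, thus near that of all identifiers. The median change of the 8 genes over the lines was -0.05 on the log2(value + 1) scale, beside -0.0012 for all tested identifiers. Changes are given on that scale throughout, which understates the change of low genes.

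**Figure D1:**
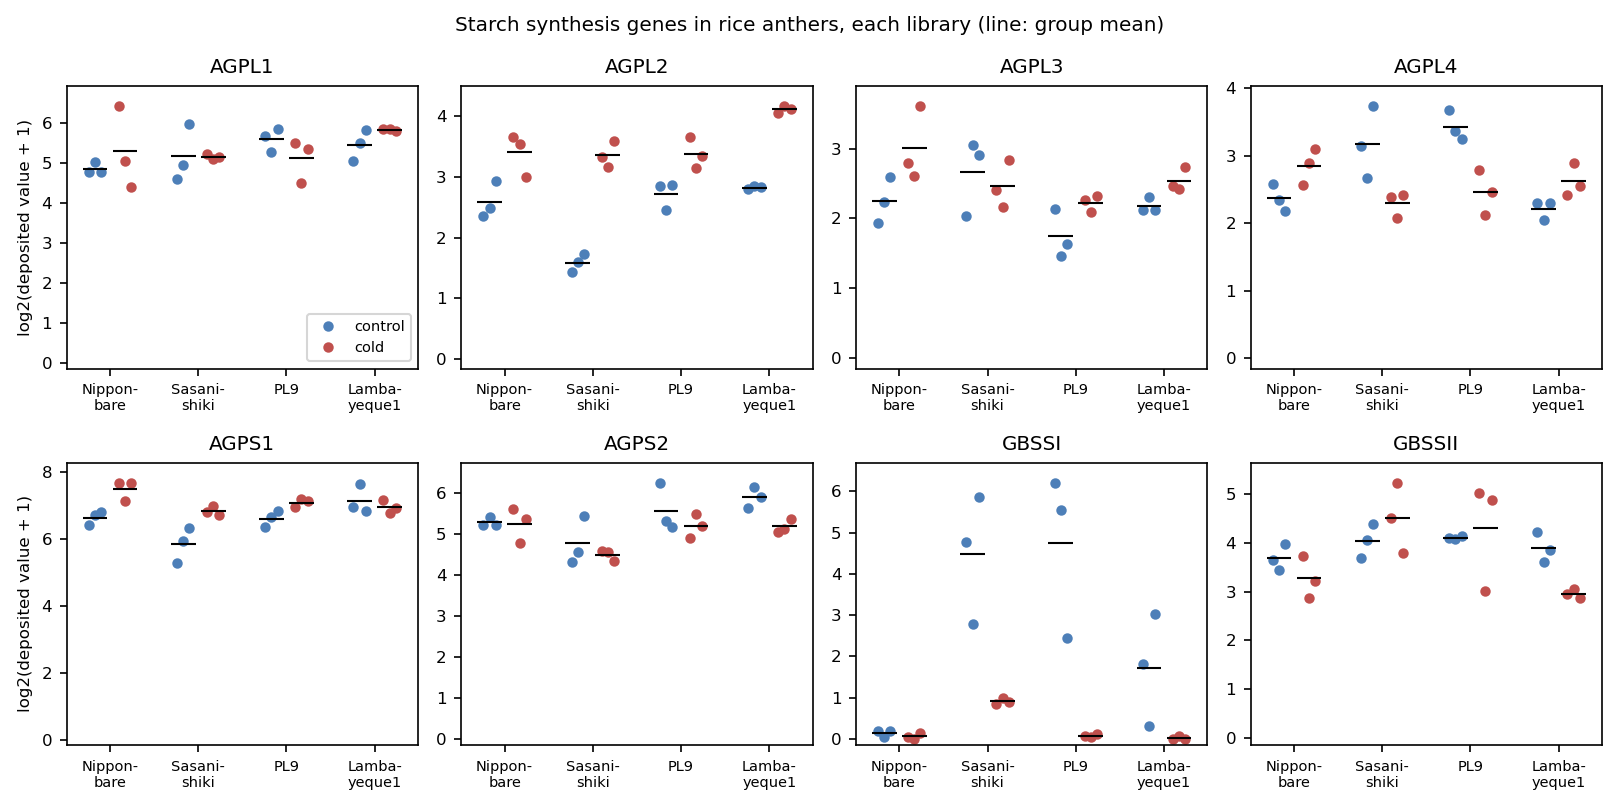
Each panel shows 1 gene, with log2(deposited value + 1) on the vertical axis and the 4 lines on the horizontal axis. Points are single libraries, blue for untreated and red for cold, and black lines are means of 3 libraries. AGPL2 has all red points above the blue ones in each line, and GBSSI has blue points spread from 4.47 to 72.6 in deposited value in Sasanishiki and PL9.

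Among the large-subunit genes, AGPL1 was the most abundant. Its value lay between 20.1 and 83.6 over the 24 libraries, and it supplied 43.8% to 80.6% of the summed large-subunit value in each library. In Nipponbare the untreated libraries had AGPL1 values of 26.3, 31.2 and 26.0 and the cold libraries 83.6, 32.2 and 20.1. The cold libraries stood on both sides of the untreated ones. AGPL1 was not called in any line, with log2 changes of 0.44 in Nipponbare (SE 0.39, adjusted p = 0.441), -0.02 in Sasanishiki, -0.48 in PL9 and 0.37 in Lambayeque1. Ordered by group mean, AGPL1 ran from 55.6 in cold Lambayeque1 to 27.9 in untreated Nipponbare. All neighbouring groups in that order overlapped except the last 2, cold Sasanishiki and untreated Nipponbare.

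AGPL2 is known from the endosperm, where it forms part of the cytosolic enzyme. In Sasanishiki it stood at 1.7, 2.04 and 2.33 without treatment and at 8.97, 7.92 and 10.9 after cold. In Lambayeque1 the untreated libraries had 5.96, 6.16 and 6.09 and the cold libraries 15.5, 16.8 and 16.3. The lowest cold library was well above the highest untreated one in both lines. In Nipponbare AGPL2 was at 4.14, 4.57 and 6.58 untreated and at 11.6, 10.6 and 6.97 after cold. In PL9 it was at 6.22, 4.47 and 6.24 untreated and at 11.5, 7.81 and 9.13 after cold. Here too the groups did not overlap, though the closest Nipponbare libraries were 6.58 and 6.97. Non-overlap with cold higher in each of the 4 lines was met by 3.91% of all tested identifiers, and a call of higher in each line by 2.2%.

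The log2 change of AGPL2 was 0.81 in Nipponbare (SE 0.19, adjusted p = 0.00392), 1.76 in Sasanishiki (adjusted p = 5.02e-06), 0.65 in PL9 (adjusted p = 0.0244) and 1.28 in Lambayeque1 (adjusted p = 1.02e-04). The mean over lines was 1.13 (SE 0.10, adjusted p = 2.46e-08, n = 12 in each treatment). In PL9 the call was lost without cold libraries 1 and 2 (0.62, adjusted p = 0.193), without cold library 1 alone (adjusted p = 0.0837), without cold library 3 (adjusted p = 0.0609) and without control library 2 (adjusted p = 0.117). Its mean share of the summed large-subunit value was 4.04% untreated and 17.6% after cold in Sasanishiki, 8.55% and 18.4% in PL9, 10.9% and 19.8% in Lambayeque1, and 12.4% and 15.2% in Nipponbare. These shares were not tested. The Nipponbare shares overlapped between treatments, from 10.5% to 16.0% without and from 11% to 19.6% with cold.

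AGPL3, another large-subunit gene, was low. In Nipponbare it had values of 2.82, 3.69 and 5.05 untreated and 5.97, 5.11 and 11.2 after cold. The cold libraries were all above the untreated ones, by a narrow margin between 5.05 and 5.11. Lambayeque1 had 3.35, 3.93 and 3.36 untreated and 4.51, 4.34 and 5.68 after cold, also without overlap. The mean went from 5.63 to 4.64 in Sasanishiki and from 2.42 to 3.67 in PL9, with overlap in both lines. The log2 change in Nipponbare was 0.75 (SE 0.28, adjusted p = 0.0527), and no line passed the threshold. In 10 of 35 alternatives Nipponbare did pass it, and with array weights Lambayeque1 did too. The mean over lines was 0.35 (SE 0.14, adjusted p = 0.0453), a call that was lost in 17 of 34 alternatives.

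AGPL4 is a large-subunit gene whose loss is known to leave rice pollen without starch. In PL9 it had values of 11.8, 9.34 and 8.48 untreated and 5.93, 3.35 and 4.51 after cold. In Sasanishiki the untreated libraries had 7.83, 5.37 and 12.3 and the cold libraries 4.27, 3.21 and 4.38. Every cold library of these lines was below every untreated one. In Nipponbare AGPL4 had values of 5.01, 4.10 and 3.56 untreated and 4.91, 6.40 and 7.55 after cold. In Lambayeque1 it had 3.94, 3.15 and 3.94 untreated and 4.35, 6.43 and 4.90 after cold. The Nipponbare groups overlapped, and in Lambayeque1 the cold libraries were all higher. The log2 change was -0.97 in PL9 (SE 0.24, adjusted p = 0.00926), -0.88 in Sasanishiki (adjusted p = 0.0101), 0.47 in Nipponbare (adjusted p = 0.149) and 0.40 in Lambayeque1 (adjusted p = 0.235). In Sasanishiki the call was lost without control library 3 (-0.61, adjusted p = 0.0573). In PL9 it was lost with array weights (-0.82, adjusted p = 0.0524), without control library 1 (adjusted p = 0.0557), without cold library 2 (adjusted p = 0.0559) and without cold libraries 1 and 2 (-0.97, adjusted p = 0.0883).

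**Figure D2:**
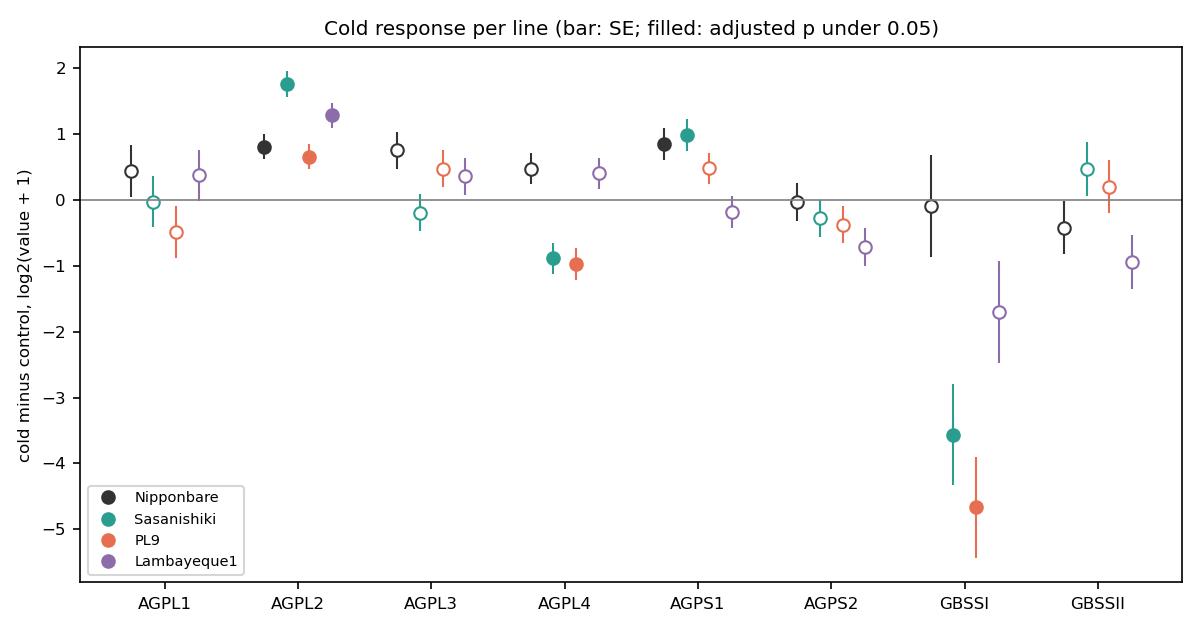
The vertical axis is the difference between cold and untreated libraries in log2(value + 1), and the horizontal axis lists the 8 genes. Points are estimates for each line with their SE, filled where the adjusted p was under 0.05. AGPL2 has 4 filled points above 0, and GBSSI has filled points at -3.56 in Sasanishiki and -4.67 in PL9.

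Of the small-subunit genes, AGPS1 was the more abundant. In Nipponbare it rose from 83.4, 103 and 110 to 202, 139 and 201. In Sasanishiki it rose from 37.4, 60.6 and 79.0 to 109, 126 and 104. The groups were apart in both lines. In PL9 AGPS1 values were 80.3, 99.1 and 112 untreated and 122, 145 and 138 after cold, again without overlap. In Lambayeque1 they were 124, 197 and 112 untreated and 141, 108 and 121 after cold, and the groups overlapped. The log2 change was 0.85 in Nipponbare (SE 0.24, adjusted p = 0.0124), 0.99 in Sasanishiki (adjusted p = 0.00538), 0.48 in PL9 (adjusted p = 0.181) and -0.19 in Lambayeque1 (adjusted p = 0.626). The Nipponbare call was lost without control library 1 (adjusted p = 0.064), without cold library 1 (adjusted p = 0.0549) and without cold library 3 (adjusted p = 0.0551). The mean over lines was 0.53 (SE 0.12, adjusted p = 0.00109). AGPS1 stands on 2 rows of the files, from which its value per library was read back. Summing rows as deposited mixes libraries for any gene on several rows, so it does not test the changes above. Summed that way, the AGPS1 change was -0.059 in Nipponbare and 0.46 in Sasanishiki (adjusted p = 0.061). Its mean over lines was then 0.13 (adjusted p = 0.256).

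AGPS2, the small-subunit gene best known from the endosperm, went the other way in its mean. In Lambayeque1 it had values of 48.5, 70.0 and 58.7 untreated and 32.1, 33.9 and 40.6 after cold, which did not overlap. In Nipponbare its values were 36.0, 42.0 and 36.0 untreated and 47.7, 26.5 and 40.3 after cold, and the cold libraries enclosed the untreated ones. No line was called, with log2 changes from -0.71 in Lambayeque1 (SE 0.29, adjusted p = 0.0782) to -0.03 in Nipponbare. The mean over lines was -0.35 (SE 0.14, adjusted p = 0.0478), a call that was lost in 23 of 34 alternatives. AGPS2 was also described as a share of the summed small-subunit value. Its mean share was 27.9% ± 2.82 (SD, n = 3) in untreated and 17.2% ± 1.65 in cold Nipponbare. It was 31.9% ± 4.11 and 16.0% ± 1.09 in Sasanishiki, 33.3% ± 13.1 and 21.0% ± 1.97 in PL9, and 29.6% ± 4.22 and 22.5% ± 3.48 in Lambayeque1. Within each line the 3 cold libraries had lower shares than the 3 untreated ones. AGPS1 and AGPS2 stand on several rows, so these shares rest on values read back. These shares were not tested.

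The large-subunit sum divided by the small-subunit sum ranged from 0.19 to 0.686 over all libraries. In untreated Sasanishiki this ratio was 0.618 ± 0.0771 (SD, n = 3) and after cold 0.392 ± 0.0665. In Lambayeque1 it was 0.293 ± 0.0977 untreated and 0.518 ± 0.0619 after cold. The ratio was 0.448 ± 0.0585 untreated and 0.318 ± 0.121 after cold in PL9, and 0.301 ± 0.0189 and 0.314 ± 0.118 in Nipponbare, with overlap in both lines. The ratio was lower after cold in Sasanishiki and higher after cold in Lambayeque1, without overlap in those lines, and this was not tested. It too rests on values read back, for AGPL3, AGPS1 and AGPS2.

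**Figure D3:**
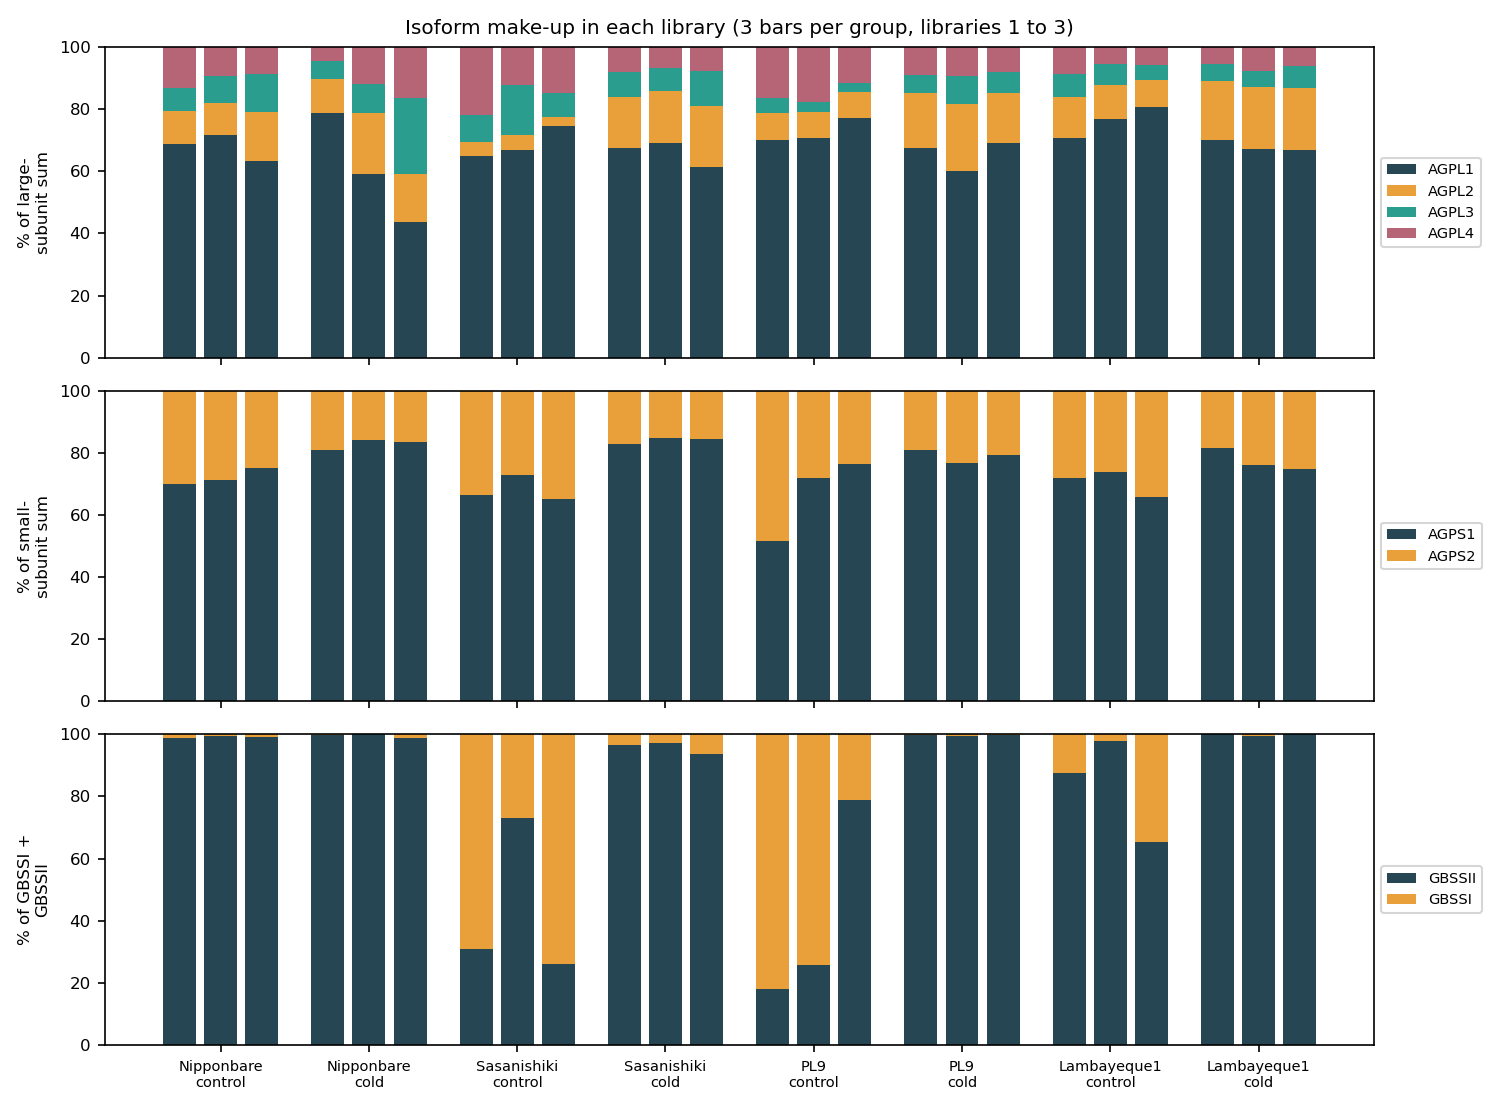
Each bar is 1 library, with 3 per group, and the vertical axes give percent of the summed deposited values. The panels divide the sum of large subunits, of small subunits and of granule-bound synthases among their genes. AGPS2 takes 15.2% to 25.1% of the small-subunit sum in cold libraries and 23.7% to 48.3% in untreated ones, and GBSSI takes at most 6.19% of its sum after cold.

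GBSSI, the product of the Waxy gene, makes amylose in endosperm and pollen. In untreated PL9 it had values of 72.6, 45.9 and 4.47, and after cold 0.0428, 0.0292 and 0.0769. In untreated Sasanishiki it had 26.5, 5.86 and 56.7, and after cold 0.781, 1.00 and 0.855. The untreated libraries of each line spread widely, yet all stood above the cold ones. In Lambayeque1 the untreated values were 2.50, 0.240 and 7.20, and the cold libraries were listed at 0, 0.0412 and 0. In Nipponbare it was at 0.139, 0.0397 and 0.145 untreated and at 0.0228, 0 and 0.101 after cold, with overlap. GBSSI was thus near 0 in Nipponbare under both treatments.

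The log2 change of GBSSI was -3.56 in Sasanishiki (SE 0.77, adjusted p = 0.0023) and -4.67 in PL9 (adjusted p = 5.68e-04). Without PL9 cold libraries 1 and 2 the PL9 change was -4.63 (adjusted p = 0.0201). In Lambayeque1 the change was -1.7 (SE 0.77, adjusted p = 0.12), and with a pseudocount of 0.1 it was -4.05 (adjusted p = 0.00587). In Nipponbare it was -0.09 (adjusted p = 0.953). GBSSI stands on 2 rows of the files, from which its value per library had to be read back. Summing these rows mixes libraries. With the rows summed as deposited, the GBSSI change in Sasanishiki was -0.46 (adjusted p = 0.584), the PL9 change was 0.80 (adjusted p = 0.338) and the mean over lines was 0.12, beside -2.50 (SE 0.39, adjusted p = 2.57e-05) after reading back.

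The 3 untreated libraries of a line differed in GBSSI, and other measurements differed with it. In untreated PL9, where GBSSI was at 72.6, 45.9 and 4.47, the 7 tapetum markers summed to 5794, 10541 and 18568. In untreated Sasanishiki, where GBSSI was at 26.5, 5.86 and 56.7, they summed to 8745, 16858 and 7141. In both lines the library with the least GBSSI had the largest tapetum sum. The other lines did not show this order. In untreated Nipponbare, with GBSSI at 0.139, 0.0397 and 0.145, the sums were 8056, 6352 and 9676. In untreated Lambayeque1, with GBSSI at 2.50, 0.240 and 7.20, they were 7188, 6972 and 4910. Most of the sum in untreated Sasanishiki and PL9 was OsC6, and single markers were mixed. TDR peaked in the libraries with the largest sums, at 213 in Sasanishiki and 192 in PL9. RAFTIN1 did not, with 1194, 1116 and 1173 in Sasanishiki and 1683, 2543 and 1842 in PL9. AGPL4 kept the same order as GBSSI in untreated Sasanishiki and PL9. It did so in untreated Lambayeque1 too, with 3.936, 3.148 and 3.938, but not in untreated Nipponbare. Os12g0420100, the identifier whose pattern was most like that of GBSSI, had 133, 12.4 and 333 in untreated Sasanishiki and 243, 186 and 50.1 in untreated PL9. Its likeness to GBSSI over these libraries is how it was chosen, so its order is no separate support for the GBSSI values. The part of the tapetum shift in these differences was not tested.

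**Figure D4:**
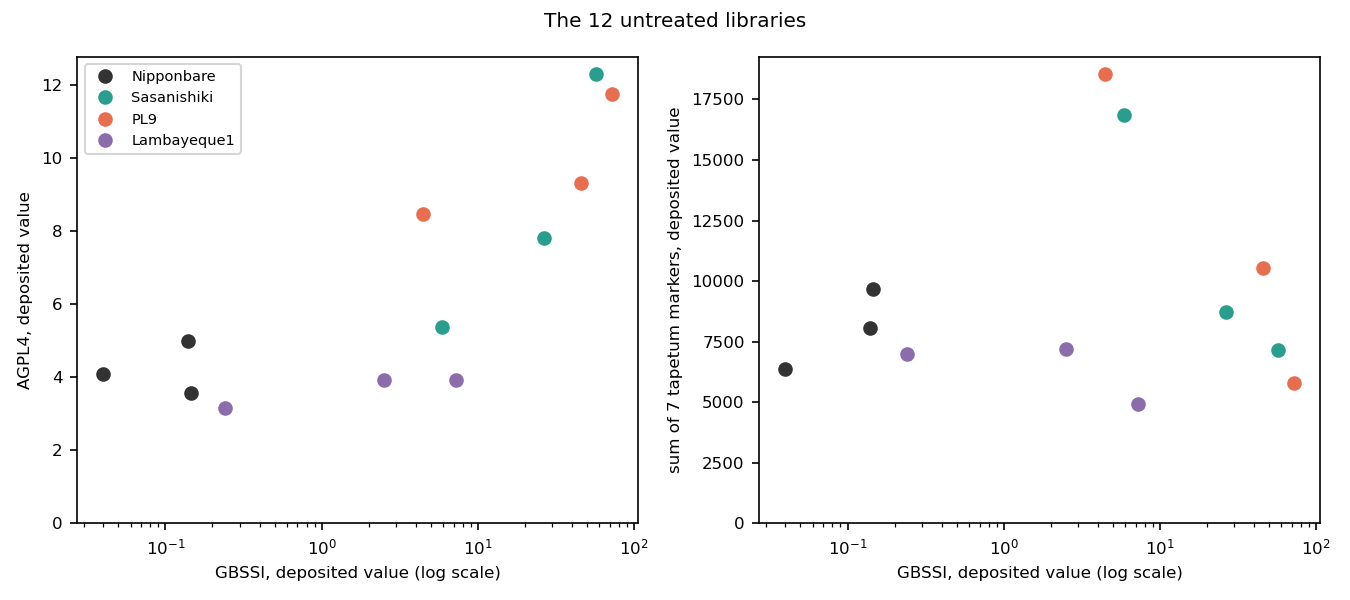
Each point is 1 of the 12 untreated libraries, coloured by line, with the deposited GBSSI value on a logarithmic horizontal axis. The vertical axes give the AGPL4 value (left) and the sum of 7 tapetum markers (right). The PL9 library with GBSSI at 4.47 has a tapetum sum of 18568, and the one at 72.6 has 5794.

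GBSSII, the granule-bound synthase best known from leaves, was called in no line in the fit of all libraries without array weights. Array weights, and a fit on Lambayeque1 alone, each called GBSSII in that line. In Lambayeque1 it had values of 17.7, 11.2 and 13.6 untreated and 6.69, 7.33 and 6.34 after cold, without overlap. In PL9 it was at 16.1, 15.9 and 16.7 untreated and at 31.7, 7.07 and 28.6 after cold, where library 2 was far below the other 2. That library also had the lowest green-tissue sum of the PL9 cold libraries, with 621, 216 and 860 in libraries 1 to 3. Of the checked green-tissue markers RCA was not lowest there, with 12.9, 16.6 and 24.2. The lowest GBSSII and the lowest sum also shared a library in cold Nipponbare (6.27 and 452) and cold Sasanishiki (13.0 and 528). In cold Lambayeque1 they did not. The highest GBSSII and the highest sum lay in different libraries in cold Sasanishiki and cold PL9. The part of green tissue in the GBSSII values was not tested. The log2 change was -0.94 in Lambayeque1 (SE 0.41, adjusted p = 0.104, 0.021 without PL9 cold library 2 and 0.0257 without PL9 cold libraries 1 and 2) and lay between -0.42 and 0.47 in the other lines. GBSSI made up 69.0%, 27.0% and 73.9% of the GBSSI and GBSSII sum in untreated Sasanishiki and 3.43%, 2.66% and 6.19% after cold. In untreated PL9 it made up 81.8%, 74.3% and 21.1%, and after cold at most 0.412%.

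Calls within a line rest on a spread shared by all 24 libraries. Fitted on 1 line alone, AGPL2 lost its call in Nipponbare (adjusted p = 0.0658) and PL9 (adjusted p = 0.118), and AGPL4 lost its call in Sasanishiki (adjusted p = 0.127) and PL9 (adjusted p = 0.0722). AGPS1 lost its call in Sasanishiki (adjusted p = 0.0828) and GBSSI in PL9 (adjusted p = 0.0604). Calls were also gained, as AGPS2 and GBSSII passed the threshold in Lambayeque1 when that line was fitted alone.

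Whether the lines responded differently was tested directly. The F-test of the difference in response called 3 of the 8 genes, against 7.59% of all identifiers. These were AGPL4 (F = 11, adjusted p = 0.00908), GBSSI (F = 6.9, adjusted p = 0.0395) and AGPL2 (F = 6.8, adjusted p = 0.0408). The F-test call of AGPL4 held in all 35 alternatives, whereas that of AGPL2 was lost in 19 of 35 and that of GBSSI in 23 of 34. Without PL9 cold libraries 1 and 2 the F-test gave an adjusted p of 0.0663 for AGPL2 and 0.102 for GBSSI. The AGPL4 response was lower in Sasanishiki than in Nipponbare by a log2 difference of -1.36 (SE 0.34, adjusted p = 0.0228), a comparison that called 5.57% of identifiers. That call was lost without Nipponbare control library 3 (adjusted p = 0.0512), Nipponbare cold library 3 (adjusted p = 0.0628) and Sasanishiki cold library 2 (adjusted p = 0.0508). The AGPL4 response was also lower in PL9 than in Nipponbare, by -1.44 (adjusted p = 0.0183, background 4.57%). That call was lost without PL9 cold libraries 1 and 2 (adjusted p = 0.0712), without PL9 control library 1 (adjusted p = 0.0596) and without Nipponbare cold library 3 (adjusted p = 0.0506). The AGPL4 response in Lambayeque1 exceeded that in Sasanishiki by 1.29 (adjusted p = 0.0399, background 3.38%), a call lost in 12 of 35 alternatives, each with 1 library left out, with adjusted p up to 0.101.

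The GBSSI response in PL9 differed from that in Nipponbare by -4.58 (SE 1.09, adjusted p = 0.0207). That call was lost without PL9 cold libraries 1 and 2 (-4.54, adjusted p = 0.104), without PL9 control library 1 (adjusted p = 0.0682), without PL9 control library 2 (adjusted p = 0.0543) and with a pseudocount of 5 (adjusted p = 0.0565). With rows summed as deposited the difference was 0.73. The AGPL2 response in PL9 differed from that in Sasanishiki by -1.11 (SE 0.27, adjusted p = 0.0446, background 1.55%). The AGPL2 call was lost in 22 of 35 alternatives, with the replicate block (adjusted p = 0.0614) and without PL9 cold libraries 1 and 2 (adjusted p = 0.159) among them. The AGPS1 responses, from -0.19 to 0.99, did not pass the test of their difference (adjusted p = 0.0935).

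Untreated lines differed in 5 of the 8 genes, where 51% of all identifiers were called. These were AGPL2 (adjusted p = 8.75e-05), GBSSI (adjusted p = 1.23e-04), AGPL4 (adjusted p = 5.48e-04), AGPS1 (adjusted p = 0.00172) and AGPS2 (adjusted p = 0.0167). Untreated GBSSI was higher than in Nipponbare by a log2 difference of 4.32 in Sasanishiki (SE 0.77, adjusted p = 1.82e-04) and of 4.59 in PL9 (adjusted p = 2.19e-04, where 31.5% of identifiers were called). With rows summed as deposited the GBSSI difference in PL9 was 1.32 (adjusted p = 0.0572). Tapetum markers also differed between untreated lines, not all in the same direction. CYP703A3 lay at 172 to 392 in Nipponbare, 20.6 to 48.3 in Lambayeque1, and at most 0.951 in Sasanishiki and 0.57 in PL9. The tapetum gene OsC6 had means of 5439 in Nipponbare, 4691 in Lambayeque1, 9501 in Sasanishiki and 9327 in PL9. The part of these marker differences in the line differences was not tested. Untreated AGPL2 was lower in Sasanishiki than in each other line, with a difference of -0.997 from Nipponbare (SE 0.19, adjusted p = 3.82e-04). The background for Sasanishiki was 39.4% of identifiers against Nipponbare, 23.4% against PL9 and 32.7% against Lambayeque1. After cold, 2 of the 8 genes differed among lines, against 33% of all identifiers. AGPL2 was then highest in Lambayeque1 (F-test adjusted p = 0.00971), and GBSSII was lower in Lambayeque1 than in Sasanishiki by -1.56 (SE 0.41, adjusted p = 0.0077, background 24.9%). The GBSSII call was lost without Sasanishiki cold library 2 (adjusted p = 0.0547), and the difference was 0.27 with rows summed as deposited.

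Of 21 other starch genes found in the files, 9 rose and 8 fell in the mean over lines, and 4 did not pass the test, beside 51.5% of all identifiers called in that comparison. The starch synthase gene SSIIb fell by 2.10 on the log2 scale (SE 0.15, adjusted p = 2.84e-09), and ISA1, which encodes a debranching isoamylase, rose by 1.24 (SE 0.10, adjusted p = 7.82e-09). The synthase genes SSIIa and SSI rose by 1.22 and 0.58, and DPE1, a disproportionating enzyme gene, fell by 0.66. The list also held Os04g0164900, which rose by 1.48, Os09g0469400, which rose by 0.54, and Os04g0409200, which fell by 0.89. Their names could not be checked. Os01g0851700, on 1 row, differed among untreated lines (F = 19.8, adjusted p = 4.34e-05), with 42.5, 19.5 and 119 in untreated Sasanishiki and 43.4, 33.7 and 10.7 in untreated PL9. Those libraries stand in the same order as for GBSSI. So do the untreated libraries of Lambayeque1, at 7.88, 4.36 and 10.4, and of Nipponbare, at 2.90, 2.38 and 5.03. Os02g0202400 was at 13.7, 17.4 and 9.59 in cold Sasanishiki and at most 0.265 in every other library.

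**Figure D5:**
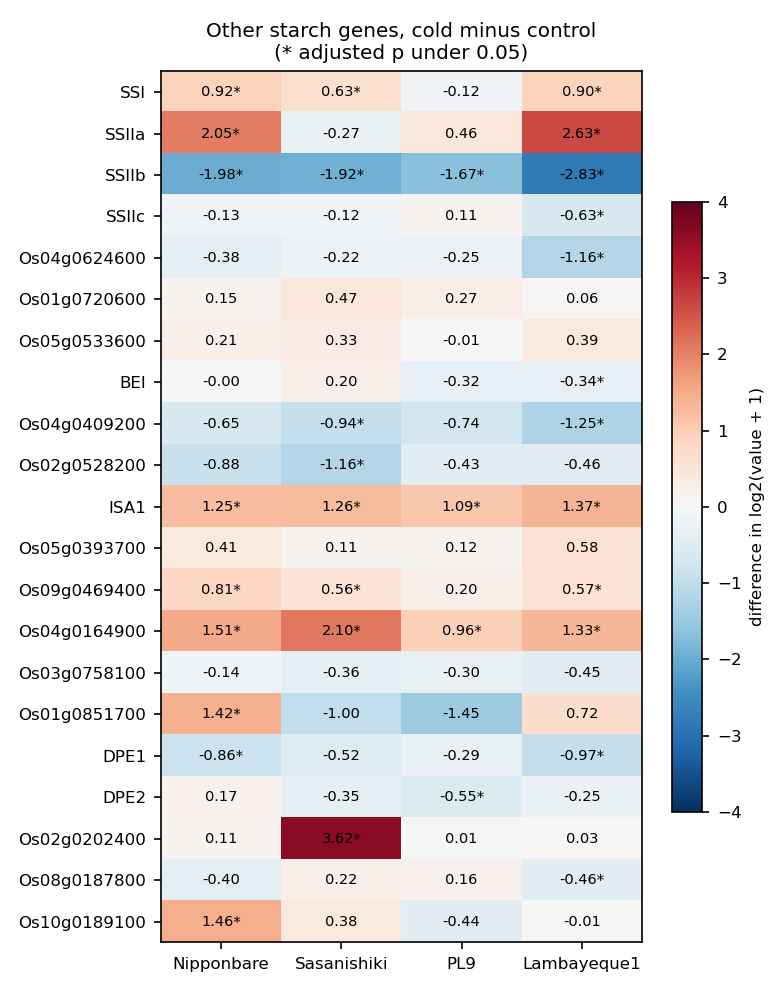
Rows are the 21 other starch genes, named by identifier where the name was not checked, and columns are the 4 lines. Colour and printed values give the cold minus untreated difference in log2(value + 1), and a star marks an adjusted p under 0.05. SSIIb is lower and ISA1 higher with a star in all 4 lines.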

How the data were processed

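The deposited tables hold 1 abundance signal per row and library, which the authors named TPM per the file headers. Each library's column summed to more than a TPM column can, so the values were treated as a signal on the authors' scale. The build IRGSP-1.0 and the tools sleuth 0.30.0 and kallisto 0.46.2 are named per the submitters' processing notes. Identifiers on several rows (5399 of 37910) hold 1 value per library repeated and written row by row across libraries, and were read back to 1 value. Of 24 line orders tried, the one used fitted all 5399, the next 5359 and each other order 5154. Identifiers on 2 rows fit under any line order. The fit therefore does not show the line order for AGPL3, AGPS1, GBSSI and GBSSII, each on 2 rows. AGPS2, on 4 rows, also fits with PL9 and Nipponbare placed before Sasanishiki and Lambayeque1, the order that fitted 5359. Its fit does not show which of these pairs of lines came first. Reading back affects AGPL3, AGPS1, AGPS2, GBSSI and GBSSII, not AGPL1, AGPL2 or AGPL4.

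The filter kept the 27655 identifiers that reached 1 in 3 or more libraries. In R 4.3.3, limma 3.58.1 fitted 8 group means to log2(value + 1) of 24 libraries, using lmFit and a trended eBayes. Benjamini-Hochberg adjustment ran over all identifiers of a comparison. Tested on simulated data for the Nipponbare comparison with 27655 genes, the fit recovered 50.8%, 88.4% and 100% of log2 changes of 1, 2 and 4. The simulation used normal noise and changed 200 genes, all with a mean log2(value + 1) above 2. The real comparison called 27.7% of identifiers. The rates therefore do not cover genes with lower means. Tables were made with Python 3.11.15 and pandas 2.3.3. Gene names were checked in a RefSeq table of another assembly, by chromosome and relative gene order within 2%. All 8 genes were named whatever their values, and up to 10 of the other starch genes by smallest adjusted p among those called. The genes and lists were chosen with earlier results of these data known. Alternatives were other pseudocounts, no filter, other scalings, rows summed as deposited, identifiers on 1 row only, a replicate block, no trend, array weights, libraries left out and each line fitted alone.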

Additional observations from a re-analysis of the deposited data

Results flagged for a closer look

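The cold response differed between lines for 3 genes by the tests of the difference itself. For AGPL4 the F statistic over the 4 lines was 11, and the log2 response differed by -1.36 between Sasanishiki and Nipponbare, by -1.44 between PL9 and Nipponbare and by 1.29 between Lambayeque1 and Sasanishiki. For AGPL2 the F statistic was 6.8, with a response larger by 0.95 in Sasanishiki than in Nipponbare and a PL9 minus Sasanishiki difference of -1.11. The AGPL2 calls were lost in 19 of 35 alternatives for Sasanishiki against Nipponbare and in 22 of 35 for PL9 against Sasanishiki. For GBSSI the F statistic was 6.9, with a PL9 minus Nipponbare difference of -4.58, where Nipponbare was near 0 under both treatments.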

How the results depend on the processing

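Of 3198 recomputed values for the 8 genes, 2886 kept direction and side of the threshold, 241 lost the call, 44 gained it and 27 changed sign. With rows summed as deposited, which mixes libraries for genes on several rows, log2 changes became -0.059 (AGPS1), 0.070 (AGPS2) and 0.071 (GBSSI) in Nipponbare, 0.24 (AGPL3) in Sasanishiki, 0.80 (GBSSI) and -0.030 (GBSSII) in PL9, and 0.042 (AGPS1) and 0.055 (GBSSI) in Lambayeque1. The GBSSI mean became 0.12 and its PL9 minus Nipponbare response 0.73. Untreated AGPS2 became -0.44 for PL9 and -0.045 for Lambayeque1 against Sasanishiki, and cold-treated GBSSII 0.27 for Lambayeque1 against Sasanishiki. All 43 shares that moved did so under this setting, of 72 recomputed under it, and 3235 identifiers then differed in response. Quantile normalization gave AGPL1 in Sasanishiki 0.061. Array weights gave AGPS2 in Nipponbare 0.044, AGPL1 in Sasanishiki 0.27 and AGPS1 in Lambayeque1 0.012. They called 12201, 11520, 2024 and 13406 identifiers in Nipponbare, Sasanishiki, PL9 and Lambayeque1, 7877 for the difference in response and 19576 among cold-treated lines. The PL9 count, 4864 in all libraries, was 1975 without PL9 cold libraries 1 and 2 and 1432 on PL9 alone, and the Sasanishiki count, 7203, was 3394 on Sasanishiki alone. The cause was not tested.

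Leaving out 1 library at a time gave 4540 to 7730 calls in Sasanishiki, 2289 to 5847 in PL9 and 1374 to 3190 for the difference in response. It gave AGPL1 -0.12 to 0.88 in Nipponbare, -0.31 to 0.38 in Sasanishiki and -0.064 to 0.19 in the mean. It gave AGPS2 -0.21 to 0.20 in Nipponbare and -0.51 to 0.051 in Sasanishiki, GBSSII -0.16 to 0.85 in PL9, and AGPS1 -0.34 to 0.058 in Lambayeque1.

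The labels do not say that equal library numbers pair samples, and 2 of 12 pairs had a correlation of deviations over 0.1, from -0.40 to 0.12. With the replicate block 7292 identifiers were called in Nipponbare, 6862 in Sasanishiki, 4525 in PL9, 6327 in Lambayeque1 and 13897 in the mean, and 1765 differed in response. The depth behind each value is unknown, which limits statements on GBSSI near 0.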

Other observations

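Likeness of pattern was described by Pearson's r over the 24 libraries, which share lines and treatments. GBSSI was most like Os12g0420100 (r = 0.96), Os12g0502300 (r = 0.96) and Os07g0105000 (r = 0.95). AGPS1 was most like Os11g0456000 (r = 0.96), AGPL2 like Os08g0564750 (r = 0.93) and AGPS2 like Os06g0634300 (r = 0.89). For AGPL3 it was Os06g0724100 (r = 0.87), for GBSSII Os03g0399800 (r = 0.83), for AGPL4 Os05g0545200 (r = 0.81) and for AGPL1 Os12g0116600 (r = 0.80). Among the 8 genes the highest r was 0.71, between GBSSI and AGPL4, followed by 0.66 between AGPL2 and AGPS1, and the lowest was -0.64, between GBSSI and AGPL2.

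The response to cold differed among lines for 4 of the 21 other starch genes, beside 7.59% of all identifiers. These were Os02g0202400, SSIIa, Os01g0851700 and Os10g0189100, the last named after its values were seen. SSIIa rose by 2.05 in Nipponbare and 2.63 in Lambayeque1 on the log2 scale, beside -0.27 in Sasanishiki and 0.46 in PL9.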
